A study of Mus musculus with 18 samples.

Results

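Potassium, sodium and calcium channel genes were examined in mouse granule neuron progenitors (GNPs) and medulloblastomas (MB). GNPs divide in the outer layer of the newborn cerebellum and can give rise to tumours when hedgehog signalling is overactive. Members were all genes whose symbol on the array begins with Kcn, Scn or Cacn and follows the naming pattern of channel alpha and accessory subunits. The pattern matched 118 of the 19057 genes with a probe of their own, of which 85 were potassium, 10 sodium and 23 calcium channel genes. These carried 248 probes, and for the 72 genes with more than 1 probe the probe with the highest mean over all arrays was used. The pattern is wider than voltage gating, since 31 of the potassium channel genes belong to the inward rectifier (Kcnj), two-pore (Kcnk) and small-conductance calcium-activated (Kcnn) families, whose channels open without a voltage sensor or without being gated by voltage.

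The data are log2 normalized intensities from 18 Illumina MouseWG-6 v2 arrays. The study asked how loss of Norrin, which signals to vessels through Frizzled4, alters tumours of Ptch+/- mice, which lack 1 copy of the receptor that restrains hedgehog signalling. Among the arrays used here there was a single MB of each of the NdpKO;Ptch+/- and Ptch+/- genotypes, so the tumours are compared here without replicates. The 4 GNP groups held 4 arrays each, of NdpKO;Ptch+/-, Ptch+/-, NdpKO and wild-type mice at postnatal day 6.

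The NdpKO animals were hemizygous males in which a lacZ cassette disrupts the X-linked Ndp gene, and the deletion is germ-line, so that it is not confined to one cell type. The labels give the strain of wild-type and Ptch+/- samples as C57Bl/6 and that of NdpKO samples as mixed, and they name no strain for most NdpKO;Ptch+/- samples. By these labels strain and Ndp genotype cannot be told apart, although the methods state that compound mutants were set against controls bred in the same cohort. Mice without Ndp were all male and the other groups could hold both sexes, so sex and Ndp genotype cannot be told apart either. The tumours also carry a label of postnatal day 6, although the methods describe tumours taken from mice with symptoms. The paper reports that even lesions, an earlier stage, are consistently detected only at a later age. The label is therefore unlikely to be the age of the tumours, and the sources used here do not give their exact age. For 1 array the title gives NdpKO;Ptch+/- replicate 2 while its other labels give NdpKO. It was grouped by its title.

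The probe of Ndp lay between 4.10 and 4.13 in all 18 arrays and could not check the knockout. The brighter of the Ptch1 probes measured 7.01 in the NdpKO;Ptch+/- MB and 8.69 in the Ptch+/- MB. It lay between 7.80 and 8.23 in NdpKO;Ptch+/- GNPs and between 7.63 and 7.94 in Ptch+/- GNPs, against 8.65 to 8.97 in NdpKO and 8.56 to 8.70 in wild-type GNPs. The array of disagreeing labels, grouped as NdpKO;Ptch+/-, thus lay below every array grouped as NdpKO for this probe. Of 10 markers of granule neuron progenitors, 7 lay at or above 5 in every group, while the probe of Atoh1, the factor that defines the lineage, had group means of 4.11 or 4.12 in all of them. Mbp of oligodendrocytes averaged 12.55 in NdpKO;Ptch+/- and 12.88 in wild-type GNPs, so transcripts of other cells were present in these preparations. In samples of mixed cells, fewer cells of a type and less RNA per cell cannot be told apart. Along the first principal component all wild-type arrays lay on one side and all Ptch+/- arrays on the other. Most NdpKO arrays lay on the Ptch+/- side and most NdpKO;Ptch+/- arrays on the wild-type side. The exceptions were NdpKO replicate 4, on the wild-type side, and NdpKO;Ptch+/- replicate 1, on the Ptch+/- side. Results that rest on these 2 arrays are given with and without them. From its own principal component analysis of the GNPs, made after a probe quality filter, the paper reports no clear separation of the mutants.

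Channels set the electrical behaviour of a neuron by passing selected ions when their pore opens. Sodium channels carry the upstroke of the action potential, potassium channels restore and hold the resting potential, and calcium channels turn a change of voltage into calcium entry that drives transmitter release and gene expression. Pore-forming alpha subunits work with accessory subunits that move them to the membrane and set their kinetics. Granule neurons of the cerebellum begin to fire only as they mature and leave the external granule layer.

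The promoter windows of 3 genes are shown. They were chosen because Kcnd2 had the lowest and Cacna2d1 the highest difference between tumours and GNPs among all members, while Cacnb4 was the only member whose window held the core sequence recognised by GLI factors. Of the 118 genes, 90 were found in a RefSeq table of windows that run from 250 bases before to 50 bases after a transcription start on GRCm38.p6. The windows are Kcnd2 at chr6:21215096-21215395 on the plus strand, Cacna2d1 at chr5:15934441-15934740 on the plus strand and 1 of the Cacnb4 windows, at chr2:52675810-52676109 on the minus strand. Capitals mark GC boxes in the first 2 windows and the GLI core in the third. The boxes of Cacna2d1 and the core of Cacnb4 lie on the other strand and are printed as their reverse complement.
Kcnd2: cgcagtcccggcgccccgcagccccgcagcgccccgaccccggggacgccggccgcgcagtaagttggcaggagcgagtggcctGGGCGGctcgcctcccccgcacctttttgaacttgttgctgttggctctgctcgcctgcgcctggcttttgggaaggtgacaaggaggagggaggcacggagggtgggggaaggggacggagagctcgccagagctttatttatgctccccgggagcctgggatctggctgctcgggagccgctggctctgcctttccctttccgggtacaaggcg
Cacna2d1: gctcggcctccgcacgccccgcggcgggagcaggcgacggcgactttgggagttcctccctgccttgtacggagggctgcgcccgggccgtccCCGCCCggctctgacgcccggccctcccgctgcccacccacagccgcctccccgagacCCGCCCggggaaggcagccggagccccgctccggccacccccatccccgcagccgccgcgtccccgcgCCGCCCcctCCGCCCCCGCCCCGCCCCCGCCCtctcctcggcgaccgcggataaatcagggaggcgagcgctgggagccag
Cacnb4: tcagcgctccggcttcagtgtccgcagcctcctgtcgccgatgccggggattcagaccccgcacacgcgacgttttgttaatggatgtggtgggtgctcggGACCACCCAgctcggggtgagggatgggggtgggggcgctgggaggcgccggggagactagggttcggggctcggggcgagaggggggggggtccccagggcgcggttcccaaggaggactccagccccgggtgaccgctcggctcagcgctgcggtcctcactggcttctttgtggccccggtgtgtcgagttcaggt
The GLI core TGGGTGGTC was found on either strand in 1 of 125 windows of channel genes (0.8%) and in 83 of 32851 windows of all genes (0.253%). The GC box GGGCGG was found in 44.0% of channel windows and 35.7% of all windows, the E-box CAGATG in 19.2% and 17.2%, and the TATA box TATAAA in 4.8% and 13.6%. The window of Cacna2d1 held 7 GC boxes and that of Kcnd2 held 1. A match to these letters is a description of the window.

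Most channel genes were near the background of the array in every group. An intensity of 5 on the log2 scale was taken as the level near background. At least 1 group mean reached it for 24 of 118 channel genes (20.3%), against 7714 of all 19057 genes (40.5%). By class, 13 of 85 potassium, 3 of 10 sodium and 8 of 23 calcium channel genes reached the level. The number was 19 in the NdpKO;Ptch+/- MB, 13 in the Ptch+/- MB, 15 in NdpKO;Ptch+/- GNPs, 16 in Ptch+/- GNPs, 15 in NdpKO GNPs and 14 in wild-type GNPs. Of the 24 genes, 8 reached the level in a tumour and in no GNP group, 3 in GNPs and in no tumour, and 13 in both.

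**Figure D1:**
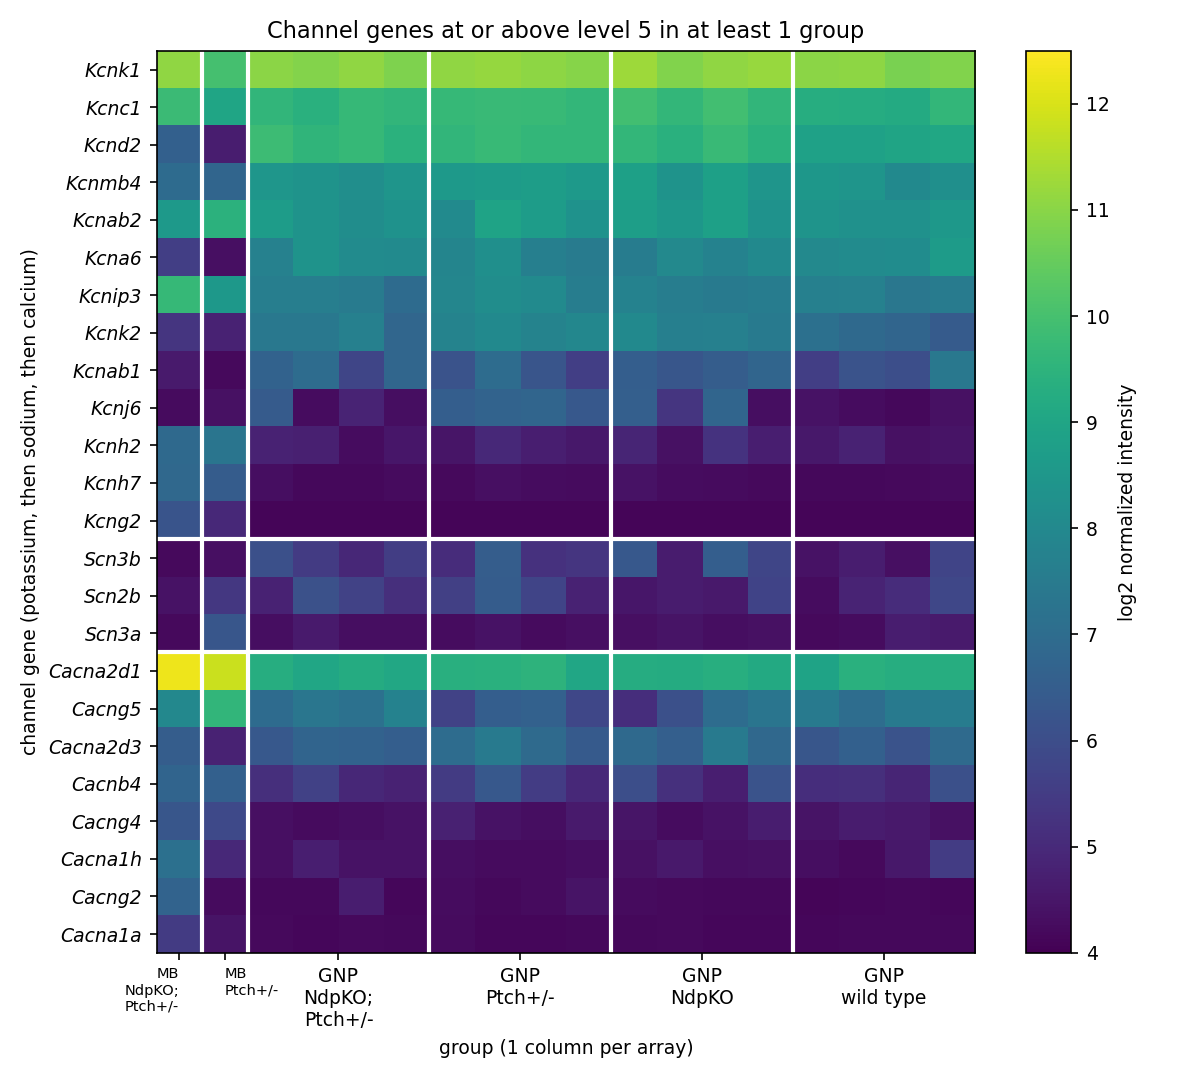
Log2 normalized intensity (colour) of the 24 channel genes that reached level 5 in at least 1 group, with genes in rows (potassium, sodium and calcium, separated by white lines) and the 18 arrays in columns by group. Kcnd2, Kcna6 and Kcnk2 were darker in the 2 tumour columns than in all GNP columns, while Cacna2d1, Kcnh2 and Kcnh7 were brighter there.

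The potassium channel genes detected in GNPs came from several families. Of 13 that reached the level in any group, 10 did so in at least 1 GNP group. Among voltage-gated alpha subunits these were Kcnd2 (Kv4.2, the A-type channel of granule neuron cell bodies and dendrites), Kcna6 (Kv1.6) and Kcnc1 (Kv3.1, a channel of fast-firing neurons). Among partners of such channels they were the beta subunits Kcnab1 and Kcnab2, the KChIP protein Kcnip3, which binds Kv4 channels and calcium, and Kcnmb4, the neuronal beta subunit of the large-conductance calcium-activated channel. Kcnma1, the pore-forming subunit of that channel, lay between 4.14 and 4.18 over the 16 GNP arrays. The remaining genes were the two-pore channels Kcnk1 and Kcnk2 (TREK-1, a leak channel opened by stretch and lipids) and Kcnj6 (GIRK2, opened by G proteins). Kcna1, Kcna2, Kcnd3, Kcnip4, Kcnj8, Kcnk9 and Kcnn4 stayed below 4.40 on every array.

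Sodium channel alpha subunits were near background in GNPs. The group means of Scn1a, Scn2a, Scn3a and Scn8a ranged from 4.15 to 4.45 in the 4 GNP groups. The accessory subunits Scn2b and Scn3b reached the level in some GNP groups with wide spread. Scn3b averaged 5.51 ± 0.47 in NdpKO;Ptch+/-, 5.53 ± 0.66 in Ptch+/-, 5.83 ± 0.85 in NdpKO and 4.79 ± 0.65 in wild-type GNPs (SD, n = 4 each). Among calcium channel genes, 4 of 23 reached the level in GNPs and did so in every GNP group. These were Cacna2d1 and Cacna2d3, alpha2delta subunits that carry the pore to the surface, Cacnb4, a cytoplasmic beta subunit, and Cacng5, a gamma subunit of the family that regulates AMPA receptors. No pore-forming calcium channel subunit had a GNP group mean at or above 5. Cacna1g, the T-type channel, had the widest range of these over the 16 arrays, from 4.18 to 5.69, and Cacna1c lay between 4.12 and 4.16.

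Loss of Norrin in Ptch+/- GNPs, the comparison closest to the question of the study, moved no channel gene past the threshold. In the limma fit over the 16 GNP arrays, 0 of 118 genes were called in NdpKO;Ptch+/- against Ptch+/- at an adjusted p below 0.05 over all probes (background 0.0157% of all genes), and 13 had an unadjusted p below 0.05, as did 2134 of all 19057 genes, a like share. The lowest difference belonged to Kcnj6 and the highest to Cacng5. Kcnj6 measured 6.45, 4.27, 4.85 and 4.32 in NdpKO;Ptch+/- GNPs, against 6.54, 6.72, 6.76 and 6.34 in Ptch+/- GNPs. Only replicate 1 of the compound mutants, the array that stood apart, lay within the range of the Ptch+/- group. The difference was -1.62 ± 0.53 (SE, limma adjusted p = 0.39). Cacng5 measured 6.98, 7.35, 7.16 and 7.77 in NdpKO;Ptch+/- GNPs, against 5.69, 6.53, 6.63 and 5.82 in Ptch+/- GNPs. The groups did not overlap, and the difference of 1.15 ± 0.40 was not called (limma adjusted p = 0.43). Without NdpKO;Ptch+/- replicate 1 the count was 1, with Kcnk5 gained, and without both arrays that stood apart it was 2, Kcnj6 and Kcnk5.

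Kcnd2 was called higher than in wild type in all 3 mutant GNP groups, the only channel gene of which this held. It measured 9.83, 9.56, 9.70 and 9.44 in NdpKO;Ptch+/- GNPs and 9.61, 9.74, 9.62 and 9.63 in Ptch+/- GNPs. It measured 9.64, 9.40, 9.77 and 9.44 in NdpKO GNPs, against 8.87, 8.86, 8.98 and 9.06 in wild-type GNPs. Every mutant array lay above every wild-type array, while the mutant groups overlapped one another. Against wild type the difference was 0.69 ± 0.09 in NdpKO;Ptch+/- (limma adjusted p = 0.020), 0.71 ± 0.09 in Ptch+/- (limma adjusted p = 0.0066) and 0.63 ± 0.09 in NdpKO GNPs (limma adjusted p = 0.020). These are 1.62-fold, 1.64-fold and 1.54-fold. All 3 comparisons share the wild-type arrays. A second Kcnd2 probe averaged 7.80 in Ptch+/- and 6.82 in wild-type GNPs, a difference of 0.98 ± 0.31 that was not called (limma adjusted p = 0.16).

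No other channel gene was called in the comparisons of NdpKO and of NdpKO;Ptch+/- with wild type. In NdpKO against wild-type GNPs 1 of 118 was called higher and 0 lower, against 0.215% and 0.283% of all genes. In NdpKO;Ptch+/- against wild-type GNPs 1 was called higher and 0 lower, against 0.0315% and 0.0525% of all genes. The calls of Kcnd2 depended on single arrays. In NdpKO against wild type the adjusted p was 0.065 without wild-type replicate 1, 0.055 without wild-type replicate 2, 0.084 without NdpKO replicate 1 and 0.062 without NdpKO replicate 3. Kcnc1 joined the calls without wild-type replicate 4, and Kcnk2 joined them without NdpKO replicate 4 or without NdpKO;Ptch+/- replicate 4, for a count of 2 in each case. Without both arrays that stood apart the count was 4, with Kcnc1, Kcnj6 and Kcnk2 gained. In NdpKO;Ptch+/- against wild type the adjusted p was 0.065 without wild-type replicate 1, 0.072 without wild-type replicate 2 and 0.075 without NdpKO;Ptch+/- replicate 3. In Ptch+/- against wild type Kcnd2 was called whichever array was left out.

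Ptch+/- against wild-type GNPs gave 3 calls, all potassium channel genes and all higher, against 0.887% of all genes called higher and 0.813% called lower. Besides Kcnd2 they were Kcnk2 and Kcnj3. Kcnk2 measured 7.81, 8.05, 7.80 and 7.92 in Ptch+/- GNPs, against 7.13, 6.89, 6.77 and 6.45 in wild-type GNPs. The groups were separate, and the difference was 1.09 ± 0.19, or 2.12-fold (limma adjusted p = 0.021). The other Kcnk2 probe lay at 4.14 in Ptch+/- and 4.12 in wild-type GNPs, near background. Kcnj3 (GIRK1, which assembles with GIRK2) averaged 4.81 in Ptch+/- and 4.34 in wild-type GNPs, below level 5 in both, with a difference of 0.47 ± 0.09 (limma adjusted p = 0.034).

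The calls beside Kcnd2 were not stable to single arrays. Kcnk2 had adjusted p-values between 0.050 and 0.064 without Ptch+/- replicate 1, 2 or 4 or wild-type replicate 3, and each of these left 1 call in all. Kcnj3 lost its call, with adjusted p-values between 0.050 and 0.097, without any of the 4 Ptch+/- arrays or without wild-type replicate 1, 3 or 4. Kcnj6 was not called but had a larger difference. It lay between 6.34 and 6.76 in the 4 Ptch+/- arrays, against 4.19 to 4.43 in the 4 wild-type arrays, at least 3.01-fold higher against level 5, with a log2 difference of 2.27 ± 0.53 (limma adjusted p = 0.064). Its next brightest probe averaged 5.50 in Ptch+/- and 4.28 in wild-type GNPs, a difference of 1.22 ± 0.28 (limma adjusted p = 0.059). Kcnj6 was called without NdpKO replicate 4 (count 5, with Cacng7 also gained), without NdpKO;Ptch+/- replicate 1 (count 4) and without both (count 6). Kcnc1 averaged 9.71 ± 0.06 in Ptch+/- and 9.35 ± 0.19 in wild-type GNPs (SD, n = 4 each), and its difference of 0.36 ± 0.10 was not called (limma adjusted p = 0.12).

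**Figure D2:**
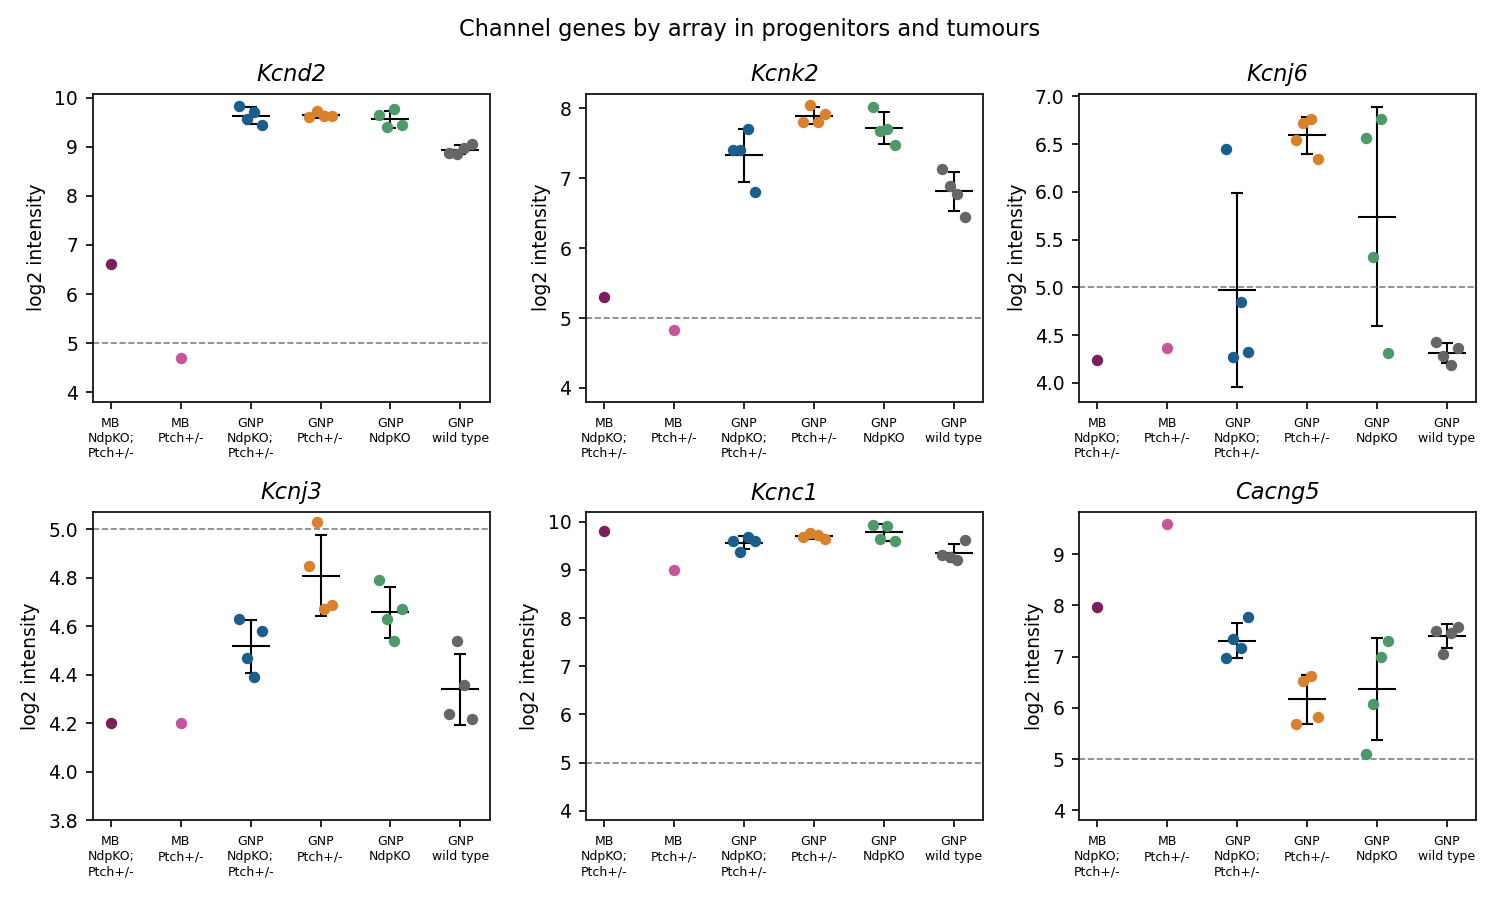
Log2 intensity of 6 channel genes by array (points) in the 2 MB and 4 GNP groups, with the mean and SD (bars) of the 4 arrays of each GNP group and level 5 as a dashed line. The vertical scales differ between genes. Wild-type GNPs lay below every other GNP array for Kcnd2, and Kcnj6 split the NdpKO and NdpKO;Ptch+/- groups, with single arrays from 4.27 to 6.76.

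Whether the difference that goes with Ptch heterozygosity was the same in mice with and without Norrin was tested as an interaction. It called 0 channel genes higher and 1 lower, against 0.373% and 0.415% of all genes. The gene was Kcnk2. It measured 7.40, 7.40, 7.70 and 6.80 in NdpKO;Ptch+/- GNPs, against 8.02, 7.67, 7.71 and 7.47 in NdpKO GNPs, and the arrays of these groups overlapped. The difference was -0.39 ± 0.19 there and 1.09 ± 0.19 in Ptch+/- against wild-type GNPs, which gives an interaction of -1.48 ± 0.26 (limma adjusted p = 0.040). Kcnj6, Kcnd2 and Kcnj3 had interactions of -3.04 ± 0.75, -0.64 ± 0.13 and -0.61 ± 0.13, and Cacng5 had 2.18 ± 0.57. None of these 4 was called (limma adjusted p = 0.091, 0.056, 0.063 and 0.11).

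The interaction call was lost without most single arrays. Kcnk2 stayed called without wild-type replicate 1 or 4, without NdpKO replicate 4 and without NdpKO;Ptch+/- replicate 1 or 3. Leaving out any of the other 11 arrays gave 0 calls, with adjusted p-values of Kcnk2 between 0.060 and 0.090. With the array of disagreeing labels moved to NdpKO there was also none (limma adjusted p = 0.11). By the Ptch1 probe given above, that array lay below every array grouped as NdpKO. Without NdpKO replicate 4 the count was 7, without NdpKO;Ptch+/- replicate 1 it was 6, without both it was 8, and without wild-type replicate 4 it was 2. Kcnd2, Kcnj3 and Kcnj6 were among those gained without either of the first 2.

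The remaining comparison of genotypes, NdpKO;Ptch+/- against NdpKO GNPs, called 0 of 118 channel genes (background 0.00525%), with 9 at an unadjusted p below 0.05, against 1250 of all 19057 genes. Without the 2 arrays that stood apart it called 2, Kcnj6 and Kcnk5.

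Markers of some other cells had different means in the same groups. All 12 astrocyte and Bergmann glia markers had lower means in NdpKO than in wild-type GNPs, with a median difference of -0.75, and 11 of 12 had lower means in Ptch+/- than in wild-type GNPs, with a median of -0.78. Gfap was called in the first and Sox9 in the second of these. The summed level of the list lay between 103.5 and 108.3 in NdpKO;Ptch+/-, 99.1 and 103.7 in Ptch+/-, 94.8 and 107.3 in NdpKO and 108.7 and 114.5 in wild-type GNPs. Of 11 endothelial markers 10 had lower means in each of the 2 comparisons, with medians of -0.67 and -0.60, and none was called. In NdpKO;Ptch+/- against Ptch+/- GNPs 11 of 12 glial and all 11 endothelial markers had higher means, with medians of 0.30 and 0.36 and none called. In the interaction all 12 glial and all 11 endothelial markers were positive, with medians of 1.23 and 1.12, and Sox9 was called. Microglia and leukocyte markers had lower means in Ptch+/- than in wild-type GNPs for 10 of 11, with a median of -0.15 and none called. Markers of the granule lineage itself were called too. Zic2, Zic4 and Ccnd2 of 10 progenitor markers and Cntn2 and Nfia of 11 markers of maturing granule neurons were called higher in Ptch+/- GNPs against wild type, and the same genes were called lower in the interaction. The summed level of the progenitor list lay between 84.7 and 86.6 in NdpKO;Ptch+/-, 86.5 and 87.7 in Ptch+/-, 85.1 and 87.3 in NdpKO and 84.6 and 85.4 in wild-type GNPs. The part of these cells in the values of Kcnd2, Kcnk2, Kcnj3, Kcnj6 and Cacng5 was not tested.

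The 2 MB differed from GNPs of their genotypes in many channel genes. Of 118, 23 were called in the limma fit of tissue with genotype as a covariate, 16 higher and 7 lower, against 9.36% of all genes called higher and 8.32% called lower. The share of channel genes called, 19.5%, was close to the 17.7% of all genes. Of 15 potassium channel calls 8 were higher and 7 lower, while all 6 calcium and both sodium channel calls were higher. Among the 23, 13 lay at or above level 5 in tumours or GNPs, 8 higher and 5 lower, of 23 members at this level, while 2827 of 7390 genes at this level were called. Kcnh2, Kcnh7, Kcng2, Cacng4 and Cacna1h reached it only in the tumours, where they were high, so this count is a description. All 5 lower ones were potassium channel genes. The median log2 difference was -0.0023 over the 118 members and -0.0012 over all genes. With 1 tumour of each genotype, the spread of this comparison came mostly from the 8 GNP arrays. By the methods the GNPs were purified cells and the tumours were dissected tissue. Tumour state, purification and age therefore cannot be told apart in this comparison.

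Of the 5 potassium channel genes at the level that fell, 4 encode subunits of voltage-gated or calcium-activated channels and the other a leak channel. Kcnd2 measured 6.61 in the NdpKO;Ptch+/- MB and 4.69 in the Ptch+/- MB, against the 9.44 to 9.83 of the 8 GNP arrays given above. It fell by 3.99 ± 0.36, or 15.9-fold (limma adjusted p = 0.00022). A second Kcnd2 probe fell by 3.46 ± 0.19 (limma adjusted p = 1.4e-05). Kcna6 measured 5.57 and 4.35 in the same tumours, against 7.72, 8.38, 8.11 and 8.08 in NdpKO;Ptch+/- and 7.87, 8.22, 7.68 and 7.53 in Ptch+/- GNPs. It fell by 2.99 ± 0.27, at least 7.72-fold against level 5 (limma adjusted p = 0.0002), and its second probe fell by 1.98 ± 0.28. For both genes the tumours lay below all 16 GNP arrays.

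Kcnk2 measured 5.30 in the NdpKO;Ptch+/- MB and 4.83 in the Ptch+/- MB, against 6.80 to 8.05 in the 8 GNP arrays, and fell by 2.55 ± 0.27, or 5.84-fold (limma adjusted p = 0.00054). Kcnmb4 measured 6.98 and 6.77 in these tumours, against 8.47, 8.35, 8.19 and 8.43 in NdpKO;Ptch+/- and 8.56, 8.67, 8.74 and 8.55 in Ptch+/- GNPs. It fell by 1.62 ± 0.11, or 3.07-fold (limma adjusted p = 5.7e-05), and its second probe fell by 1.59 ± 0.33. Kcnab1 measured 4.62 and 4.21 in the tumours, against 5.57 to 7.02 in the 8 GNP arrays, and fell by 1.99 ± 0.40, at least 2.65-fold against level 5 (limma adjusted p = 0.013). Each of the 5 genes lay below every one of the 8 GNP arrays in both tumours. Over all settings, a second probe included, the difference of Kcnk2 came as near 0 as -0.032. The call of Kcnab1 was lost without the NdpKO;Ptch+/- MB (adjusted p = 0.085) and without the Ptch+/- MB (adjusted p = 0.10), where the remaining tumour is assumed to vary like the GNPs.

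The potassium channel genes that rose were 4 among those at the level. Kcnh2 and Kcnh7 encode erg channels, which pass a current that shapes the resting potential and repolarization. Kcnh2 measured 6.92 in the NdpKO;Ptch+/- MB and 7.30 in the Ptch+/- MB, against 4.80, 4.75, 4.28 and 4.50 in NdpKO;Ptch+/- and 4.47, 4.97, 4.72 and 4.56 in Ptch+/- GNPs. The difference was 2.48 ± 0.17, at least 4.31-fold against level 5 (limma adjusted p = 4.7e-05), and a second probe rose by 1.98 ± 0.16. Kcnh7 measured 6.86 and 6.46 in the tumours, against 4.18 to 4.36 in the 8 GNP arrays. It rose by 2.40 ± 0.09, at least 3.16-fold against level 5 (limma adjusted p = 1.5e-06), while its other 2 probes lay near background in tumours and GNPs. Kcnh6, the third erg gene, had means of 4.15 in tumours and 4.50 in GNPs and was not called (-0.35 ± 0.11, limma adjusted p = 0.074).

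Kcnip3 measured 9.68 in the NdpKO;Ptch+/- MB and 8.54 in the Ptch+/- MB, against 6.96 to 8.16 in the 8 GNP arrays. Both tumours lay above every one of these arrays, and the difference was 1.42 ± 0.36, or 2.67-fold (limma adjusted p = 0.035). Its call was lost without the NdpKO;Ptch+/- MB (difference 0.61, adjusted p = 0.34) and, with adjusted p-values between 0.050 and 0.065, without NdpKO;Ptch+/- replicate 1, 2 or 3 or Ptch+/- replicate 1, 3 or 4. Kcng2, an electrically silent alpha subunit that modifies Kv2 channels, measured 6.20 in the NdpKO;Ptch+/- MB and 4.97 in the Ptch+/- MB, against 4.10 or 4.11 on each of the 8 GNP arrays. It rose by 1.48 ± 0.22, at least 1.50-fold against level 5 (limma adjusted p = 0.0033). Over all settings, a second probe included, the smallest difference of Kcng2 was 0.042.

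All 6 calcium channel genes called were higher in the tumours, of which 3 encode accessory subunits (Cacna2d1, Cacng4 and Cacnb4) and 3 pores (Cacna1h, Cacna1a and Cacna1b). Cacna2d1 measured 12.29 in the NdpKO;Ptch+/- MB and 11.82 in the Ptch+/- MB, against 9.29, 9.04, 9.22 and 9.09 in NdpKO;Ptch+/- and 9.36, 9.38, 9.48 and 9.02 in Ptch+/- GNPs. Both tumours lay above every GNP array, and the difference was 2.82 ± 0.16, or 7.05-fold (limma adjusted p = 1.7e-05). A second Cacna2d1 probe averaged 8.99 in tumours and 8.47 in GNPs and was not called (0.52 ± 0.25, limma adjusted p = 0.26), so the probes of this gene disagreed in size. Cacng4, a gamma subunit of the AMPA receptor regulatory group, measured 6.28 and 5.88 in the tumours, against 4.24 to 4.79 in the 8 GNP arrays, and rose by 1.65 ± 0.16, at least 2.11-fold against level 5 (limma adjusted p = 0.0003).

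Cacnb4 measured 6.75 in the NdpKO;Ptch+/- MB and 6.62 in the Ptch+/- MB, against 5.16, 5.63, 4.95 and 4.83 in NdpKO;Ptch+/- and 5.48, 6.34, 5.52 and 4.99 in Ptch+/- GNPs. Both tumours lay above every one of these arrays, and it rose by 1.32 ± 0.34, or 2.50-fold (limma adjusted p = 0.040). The call was lost without the NdpKO;Ptch+/- MB (adjusted p = 0.30), without the Ptch+/- MB (adjusted p = 0.10) and, with adjusted p-values between 0.054 and 0.073, without any of the GNP arrays but NdpKO;Ptch+/- replicate 2 and Ptch+/- replicate 2. Cacna1h, a T-type pore, measured 7.15 in the NdpKO;Ptch+/- MB and 4.99 in the Ptch+/- MB, against 4.24 to 4.71 in the 8 GNP arrays, and rose by 1.69 ± 0.36, at least 2.10-fold against level 5 (limma adjusted p = 0.018). After cyclic loess normalization between arrays Cacna1h was not called (1.19, adjusted p = 0.074), nor was Cacnb4 (1.20, adjusted p = 0.055). For Cacna1h a single wild-type GNP array reached 5.52, so the Ptch+/- MB lay within the range of all 16 GNP arrays. Over all settings, a second probe included, the smallest differences were 0.0079 for Cacna1h and 0.015 for Cacnb4.

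The other calcium and sodium channel pores called averaged below 5 in both tissues. Cacna1a, the P/Q-type pore that serves transmitter release in the cerebellum, measured 5.48 in the NdpKO;Ptch+/- MB and 4.45 in the Ptch+/- MB, against 4.15 to 4.24 in the 8 GNP arrays (difference 0.78 ± 0.19, limma adjusted p = 0.029). Its call was lost, with adjusted p-values between 0.051 and 0.054, without any of the NdpKO;Ptch+/- arrays or Ptch+/- replicate 3, and after loess (0.63, adjusted p = 0.066). The sodium channel pores Scn8a and Scn1a were called with differences of 0.23 ± 0.04 and 0.12 ± 0.02 between means below 5, as were Cacna1b, Kcnq5, Kcnu1, Kcnk6 and Kcnj16 with higher and Kcnj3 and Kcnh1 with lower values in the tumours. The differences of these 7 lay between -0.46 and 0.10. The call of Kcnj3 was lost without the Ptch+/- MB (adjusted p = 0.31) and, with adjusted p-values between 0.053 and 0.057, without NdpKO;Ptch+/- replicate 1 or 4 or Ptch+/- replicate 1. Kcnh1 lost its call without either tumour (adjusted p = 0.15 without the Ptch+/- MB and 0.14 without the NdpKO;Ptch+/- MB) and Cacna1b without the Ptch+/- MB (adjusted p = 0.052). At these levels a change of RNA is compressed on the log2 scale, and no fold is given.

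**Figure D3:**
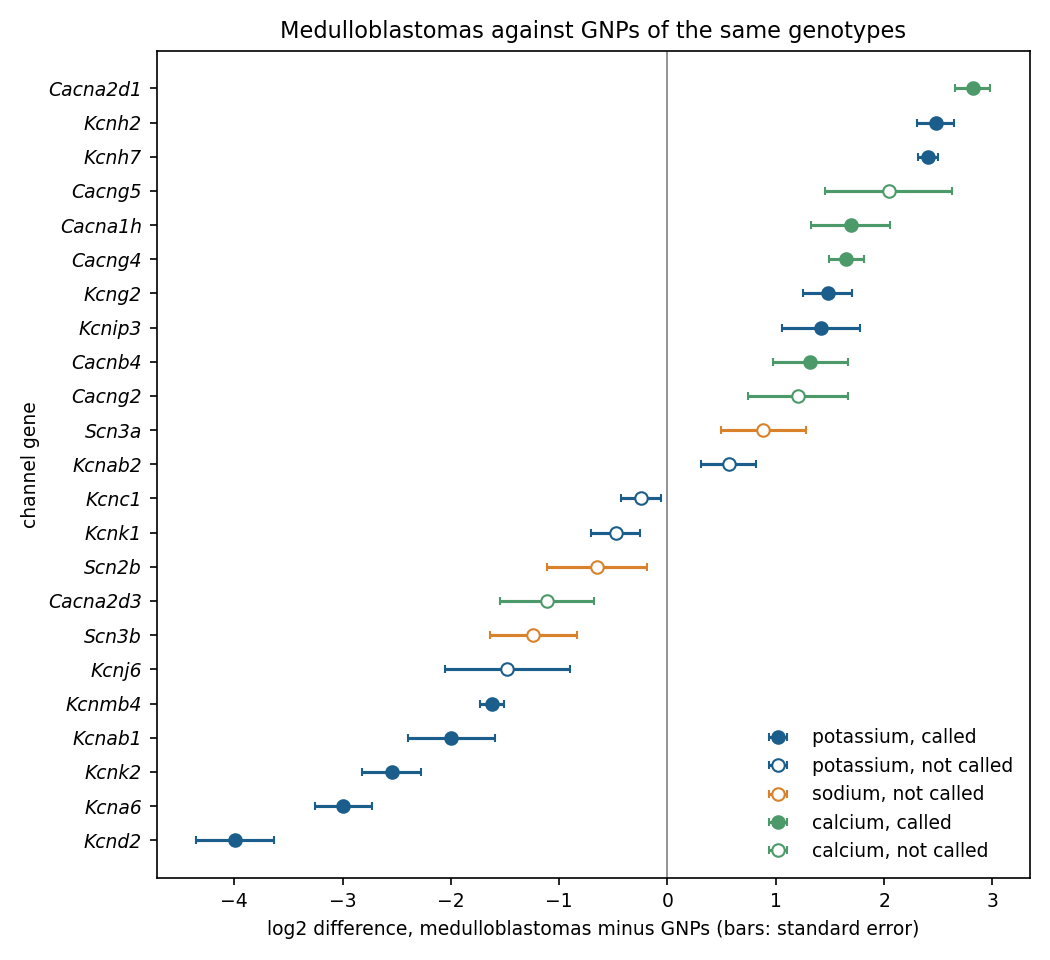
Log2 difference (points) and standard error (bars) of the 2 MB minus the 8 GNP arrays of the same genotypes for the 23 channel genes at or above level 5 in tumours or GNPs, by class (colour), with filled points for the 13 called genes. Kcnd2 had the lowest value, -3.99, and Cacna2d1 the highest, 2.82, and all filled calcium points lay above 0.

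Of the 23 members at the level, 10 were not called. Cacng5 measured 7.96 in the NdpKO;Ptch+/- MB and 9.60 in the Ptch+/- MB, against 5.69 to 7.77 in the 8 GNP arrays, with a difference of 2.04 ± 0.58 (limma adjusted p = 0.057). It was called without the NdpKO;Ptch+/- MB, as were Cacna2d3, Cacng7, Kcnc1, Kcnk1 and Scn3a, while Cacng2 and Kcnj12 were gained without the Ptch+/- MB. The values of Kcnj6 in the tumours, 4.24 and 4.37, lay near background, where wild-type GNPs also lay, against 4.27 to 6.76 in the 8 GNP arrays (limma adjusted p = 0.15). Scn3b measured 4.22 and 4.34 in the tumours, against 4.94 to 6.52 in these GNPs (-1.24 ± 0.40, limma adjusted p = 0.09), and was called without Ptch+/- replicate 2. Kcnk1 differed by -0.48 ± 0.23, Kcnc1 by -0.24 ± 0.18 and Kcnab2 by 0.57 ± 0.25 (limma adjusted p = 0.25, 0.52 and 0.22). Cacna2d3 was the only calcium channel gene at the level with a lower mean in the tumours, 5.66 against 6.77 in the 8 GNP arrays. Its difference was -1.11 ± 0.44 (limma adjusted p = 0.16). None of the 3 sodium channel genes at the level was called. In a fit over all 18 arrays the count of calls was 30 in place of 23, and Scn3a, Cacna2d3, Cacng2, Cacng5 and Kcnk1 were among those gained.

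Genes that work with these channels moved in both directions as well. From a list of 45 other channel and partner genes, 42 were measured. None was called in any of the 6 GNP comparisons, and in the tumours 10 were called higher and 3 lower, against the 9.36% and 8.32% of all genes given above. The lower ones were Dpp6, which forms the A-type channel complex with Kv4 subunits (6.42 and 7.04 in the NdpKO;Ptch+/- and Ptch+/- MB, against group means of 9.33 and 9.46 in GNPs of these genotypes, difference -2.67 ± 0.15, limma adjusted p = 1.5e-05), the scaffold Dlg2 (-2.56 ± 0.22) and Fgf13, which binds sodium channels (-1.11 ± 0.22). Higher were Ank2 and Ank3, the ankyrins that anchor channels in the membrane (1.43 ± 0.25 and 1.11 ± 0.16), Amigo1, a partner of Kv2 channels (1.39 ± 0.04), Tpcn1, a channel of endosomes and lysosomes (1.21 ± 0.19), Unc79 of the sodium leak complex (0.88 ± 0.16) and the chloride transporter Clcn3 (0.50 ± 0.06). Nalcn, Sptbn4, Lgi4 and Hvcn1 were called with group means below 5.

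Markers of other cells also differed between tumours and GNPs. Of 11 microglia and leukocyte markers 9 were called higher, with a median difference of 2.94 and a summed level of 80.9 and 87.4 in the NdpKO;Ptch+/- and Ptch+/- MB, against 53.2 to 58.2 in the GNP arrays of these genotypes. Of 10 oligodendrocyte markers 6 were called lower and 2 higher, with summed levels of 71.5 and 70.7 against 89.0 to 97.1. Of 7 GABAergic interneuron markers 4 were called lower and 1 higher, with summed levels of 36.7 and 37.6 against 55.3 to 59.6. Mog and Gad1 measured 4.13 and 4.14 in the NdpKO;Ptch+/- MB and 4.16 and 4.54 in the Ptch+/- MB, against group means of 6.87 or more and 8.66 or more in GNPs of these genotypes. All 11 endothelial markers had lower means in the tumours, with a median of -1.45, Cldn5, Emcn and Esam called, and summed levels of 65.5 and 63.1 against 70.9 to 88.0. Of 12 astrocyte and Bergmann glia markers 4 were called higher and 3 lower, and of 11 markers of maturing granule neurons 5 were called lower and 1 higher. Of 10 progenitor markers 2 were called higher and 1 lower, with summed levels of 86.8 and 85.4 against 84.7 to 87.7. Of 9 mural cell markers 2 were called higher and 1 lower, and of 6 Purkinje cell markers 2 were called lower. The part of these cells in the channel values was not tested.

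Between the tumours, 11 channel genes differed by 1 or more on the log2 scale, which is a description of 2 arrays with no replicate check. Of these, 9 were higher and 2 lower in the NdpKO;Ptch+/- MB, against 2.45% and 2.60% of all genes. Higher were 5 potassium genes (Kcnd2 by 1.92, Kcng2 by 1.24, Kcna6 by 1.22, Kcnip3 by 1.14 and Kcnk1 by 1.12) and 4 calcium genes (Cacng2 by 2.46, Cacna1h by 2.16, Cacna2d3 by 1.68 and Cacna1a by 1.03). Cacng2 (stargazin, whose loss causes the ataxia of stargazer mice) measured 6.72 in the NdpKO;Ptch+/- MB and 4.26 in the Ptch+/- MB, against 4.12 to 4.67 in all 16 GNP arrays. Cacna2d3 measured 6.50 and 4.82, against 6.18 to 7.49 in the GNPs, so that the NdpKO;Ptch+/- MB lay within the range of the GNPs and the Ptch+/- MB below it.

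The genes that were lower in the NdpKO;Ptch+/- MB were Scn3a and Cacng5. Scn3a, the sodium channel pore of the embryonic and neonatal brain, measured 4.23 in the NdpKO;Ptch+/- MB and 6.26 in the Ptch+/- MB, against 4.23 to 4.67 in the 16 GNP arrays, and no other array reached level 5. Cacng5 was 1.64 lower in the NdpKO;Ptch+/- MB, with both tumours above all 16 GNP arrays. Kcnab2, Kcnc1 and Cacna2d1, all detected in both tumours, differed by less than 1.

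**Figure D4:**
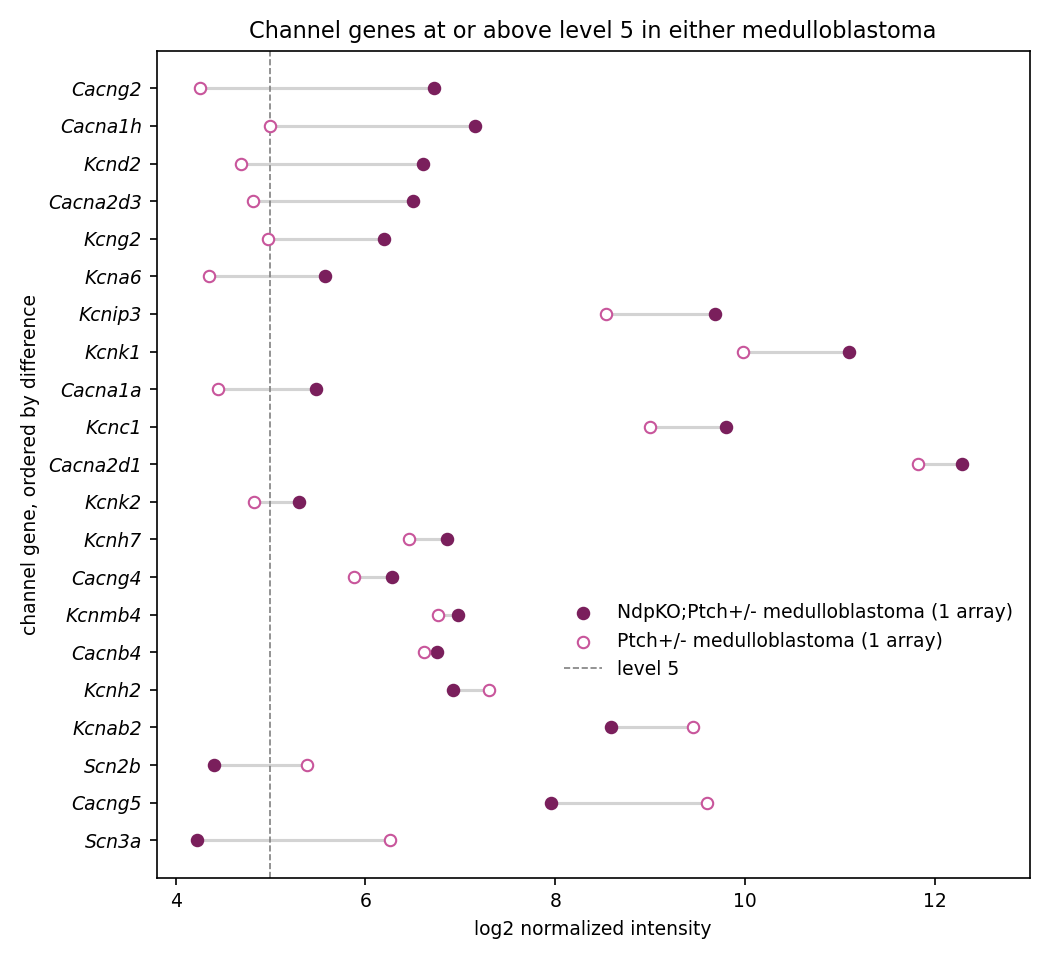
Log2 normalized intensity of the 21 channel genes at or above level 5 in either tumour, with the NdpKO;Ptch+/- MB (filled) and the Ptch+/- MB (open) joined by a line and level 5 dashed, ordered from the highest difference at the top to the lowest at the bottom. Cacng2, 6.72 against 4.26, stands at the top and Scn3a, 4.23 against 6.26, at the bottom.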

How the data were processed

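RNA of purified granule neuron progenitors and of 2 tumours was hybridised to 18 Illumina MouseWG-6 v2 arrays. The deposited values are log2 intensities that the authors made with neqc of limma (normexp background correction with control probes, then quantile normalization), and every array has the same median, 4.13. Quantile normalization removes any overall difference between tumours and GNPs. Of 45281 probes, 34885 carry 1 gene symbol in the platform annotation, 18 several and 10378 none, and the probe quality filter of the study's methods was not applied. All 118 channel genes matched RefSeq by Entrez identifier. An intensity of 5 or more, met by 23.0% to 23.9% of probes on an array, was taken as above the background, and a fold against a group below it was computed against 5 and is a lower bound.

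Linear models were fitted over all probes with limma 3.58.1 in R 4.3.3 (lmFit, contrasts and eBayes), over the 16 GNP arrays for genotypes and over 2 tumours and 8 GNP arrays for tissue with genotype as a covariate. P-values are two-sided and were adjusted by Benjamini-Hochberg over all probes, and a gene was called at an adjusted p below 0.05. Errors of differences are SE. The fit was tested on simulated data of 45281 probes, of which 200 were changed. In NdpKO;Ptch+/- against Ptch+/- it recovered 62% of changes of 1 and 93% of changes of 2 on the log2 scale, with 11 other calls. The changed probes were all drawn from those averaging 5 or more over the GNP arrays, so these rates hold for such probes only. The rates do not give the recovery for the 94 of 118 channel genes below level 5 in every group, where differences are compressed. The study describes each GNP group as 4 animals, while the labels number the arrays only as replicates. Genes named with values are all called members, the highest and lowest differences of each comparison, the brightest of each class and a list of known channels of granule neurons. The members and lists were chosen with earlier results of these data known. Alternatives were the prior, replicate block, a filter on dim probes, cyclic loess, array weights, the second probe, the disagreeing label, all 18 arrays in the tumour fit and leaving out each array. The number of arrays limits the precision.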

Additional observations from a re-analysis of the deposited data

Results flagged for a closer look

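Groups of 4 arrays were examined by Dixon's ratio of the gap to the whole range. The check covered only part of the pairs of a named channel gene and a GNP group. In 3 of 60 a single array lay away from the other 3, relative to the range of its group, however small that range was. Chance gives about 1 in 20 such groups, so 3 of 60 is the number chance gives. The arrays were Ptch+/- GNP replicate 2 for Kcnd2 (9.74) and for Scn3b (6.52), and NdpKO;Ptch+/- GNP replicate 4 for Kcnip3 (6.96). The difference of Kcnk2 that goes with Ptch heterozygosity differed between mice without and with Norrin by -1.48 in the limma interaction test (adjusted p = 0.040), and this call was lost on leaving out 11 of the 16 arrays one at a time.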

How the results depend on the processing

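Over 29 called differences of single genes and 515 settings run on them, 427 kept direction and call, 86 kept the direction but lost the call, and 2 turned, both with the second probe near background in tumours against GNPs (Kcnh7, -0.0026, and Kcnq5, -0.011). The tumour differences of Kcnd2 lay between -4.96 and -3.02 over all settings. Without 1 array the counts of called genes were 0 to 1 for NdpKO;Ptch+/- set against Ptch+/- GNPs and 0 throughout when set against NdpKO GNPs. Set against wild-type GNPs they were 0 to 1 for NdpKO;Ptch+/-, 1 to 5 for Ptch+/- and 0 to 2 for NdpKO GNPs. They were 0 to 7 (interaction) and 20 to 25 (tumours against GNPs). The replicate number did not pair the arrays (median correlation of deviations -0.0412, 3 of 24 pairs over 0.1, 4 of 16 arrays closest to their own number). With the replicate block NdpKO against wild type and NdpKO;Ptch+/- against wild type gave 0 calls in place of 1, since Kcnd2 was not called there (0.63, adjusted p = 0.052, and 0.69, adjusted p = 0.061). With only probes at or above 5 tested, the counts were 3 for NdpKO and 5 for Ptch+/- GNPs set against wild type, 6 (interaction) and 13 in place of 23 (tumours), where fewer probes were tested. Array weights gave 6 in place of 3 for Ptch+/- against wild type and 6 in place of 1 for the interaction, and the array of disagreeing labels as NdpKO gave 0 for the interaction. With the second probe of the 72 genes that have one, the counts were 0 (interaction, and both NdpKO and NdpKO;Ptch+/- set against wild type), 1 (Ptch+/- against wild type), 8 (tumours) and 4 in place of 11 (between tumours). Leaving out both arrays that stood apart, an alternative chosen after seeing the data, gave 2 calls for NdpKO;Ptch+/- GNPs against Ptch+/- GNPs and also against NdpKO GNPs, 4 for NdpKO and 6 for Ptch+/- GNPs against wild type, and 8 for the interaction. In tumours against GNPs loess left Cacna1a, Cacna1h and Cacnb4 uncalled, and Cacnb4, Kcnip3 and Kcnab1 were not called with array weights (adjusted p = 0.15, 0.078 and 0.078). Beyond the construction of each alternative the cause was not tested. The block was not fitted to the tumours, which carry 1 number each. Most channel genes lie near background, where differences are compressed and a change of RNA may not be detectable.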
